A study of Mus musculus with 72 samples.

Results

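Whole blood of mice given 4 Gy of x-rays was compared with that of mice given 1 Gy, 7 days after exposure, so that both groups had been irradiated and the groups differed in dose. The arrays were chosen by their titles alone, as 6 mice of the 4 Gy group and 5 mice of the 1 Gy group, 11 of the 72 arrays of the series, which also holds neutron exposures, controls and other days. All were male C57BL/6 mice aged 8 to 10 weeks at exposure, with 1 mouse per array, and the 6 controls of day 7 were sham-irradiated mice of the same strain. RNA from blood drawn by cardiac puncture was cleared of part of its globin transcripts before it was labelled and hybridized to 1-colour expression arrays. Every level below is a log2 intensity relative to the median detected probe of the same array, so that 0 is the level of that median probe and a difference of 1 is a 2-fold change. The neutron exposures were not compared here. Their arrays of days 1 and 7 entered the filters, the set of probes used for centring and the choice of probe for each gene. They also entered quantile normalization and an alternative fit with a spread shared over 10 groups.

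Blood carries RNA from several cell lineages that differ in their sensitivity to ionizing radiation. Resting B lymphocytes die readily after DNA damage, natural killer (NK) cells and granulocytes less so, and the number of circulating cells later depends on output from the bone marrow. DNA damage also stabilizes p53, a transcription factor whose targets halt the cell cycle, repair DNA or start apoptosis. In whole blood, fewer cells of a type and less RNA per cell cannot be told apart from these arrays, and this holds for every result below. The study reported no significant change in white blood cell makeup or cell death after irradiation. It found total counts in the normal range at both days, and those counts were not examined here.

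The arrays differed in ways other than dose. Between 59.3% and 67.3% of the probes were well above background on the 4 Gy arrays and between 52.8% and 58.8% on the 1 Gy arrays, and the median probe intensity was 46.2 to 96.4 and 26.3 to 36.0. The arrays lay on 4 slides, of which 1 held both doses, with replicate 5 of the 1 Gy group beside replicates 1 and 2 of the 4 Gy group. The other slides each held a single dose, and all arrays but replicate 4 of the 1 Gy group were scanned on the same date. Hemoglobin, the defining product of blood, had high transcript levels in all mice (8.95 to 10.29 at 4 Gy and 10.58 to 11.37 at 1 Gy for Hba-a2). Transcripts of liver were present in some mice, with all 30 hepatocyte genes above background in replicates 3 and 5 of the 1 Gy group and replicates 2, 4 and 6 of the 4 Gy group. Their mean level was 2.24 and 3.96 in those 1 Gy mice, 3.63, 4.37 and 6.33 in those 4 Gy mice, and between -5.33 and -2.99 in the other mice. Heart and muscle genes had a mean level of -5.34 to -3.27 in the x-ray mice and up to 0.92 in the controls. The part of slide, brightness and liver transcripts in each result was not tested. The 6 controls of day 7 were all scanned on another date than the x-ray mice and lay on other slides, so that in every comparison with controls exposure cannot be told apart from scan date or slide.

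Of 10863 genes tested, 1036 (9.54%) were differentially expressed between the doses (limma, p below 0.001 and a false discovery rate below 0.05 over all genes). At 4 Gy, 434 genes were higher and 602 were lower, which is 4% and 5.54% of the genes tested, and 41.9% of the called genes were thus higher. Its 95% exact interval of 38.9 to 45.0% counts genes as independent and measures no spread between mice. Leaving out single mice gave a share of 36.3% to 52.7%. More than a 2-fold change was seen in 273 of the higher and 488 of the lower genes. The mice of the doses did not overlap in 918 of the called genes, against 1544 (14.2%) of all genes. The split depended on the scaling of the arrays, with 51.6% higher among 998 genes after quantile normalization, 53.2% among 956 when centred on the median of all probes, 36.4% among 1110 when centred on the 75th percentile, 6.18% among 372 with normexp background correction and 99.3% among 3775 when centred on the spike-in controls, which moved the median of all genes by 1.17. All directions below are therefore relative to the median detected probe. Each count of list members below stands against 4% of all genes higher at 4 Gy and 5.54% lower. With the 5 mice with liver transcripts left out, 659 genes were called, 27.9% of them higher, and 659 were also called without replicate 2 of the 1 Gy group (689 without replicate 4). With slide as a block, where the dose difference rests on the 3 mice of the shared slide, 246 genes were called, 61.4% of them higher. Of these 246 genes, 99 were also among the 1036 called without the block. Of 83 called genes that were followed singly across settings, 63 were not called with slide as a block and 32 with replicate number as a block. With normexp background correction 35 of 80 were not called. Without replicate 1 of the 1 Gy group alone 20 of the 83 were not called. Leaving out the 5 mice with liver transcripts kept 3 mice at each dose, and the part of this smaller number in the lost calls was not tested. In that fit 33 of the 83 genes were not called, each with its direction kept. They were Ncr1 of the NK genes, Lcn2, Slpi, Cd14, Alox15 and Tlr4 of the myeloid genes, Gp1bb, Selp and P2rx1 of the platelet genes, Hba-a1, Hba-a2, Hbb-bt, Ahsp, Alad, Fech, Slc25a37, Abcg2, Ftl1, Mkrn1, Epb41 and Zfpm1 of the red cell genes, Rps24, Rpl39, Rpl17, Psmd2, Psmc5 and Psmd11 of the ribosome and proteasome, and Mgst3, Gpx4, Prdx3, Tpm2, Tmem273 and Slc13a3.

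**Figure D1:**
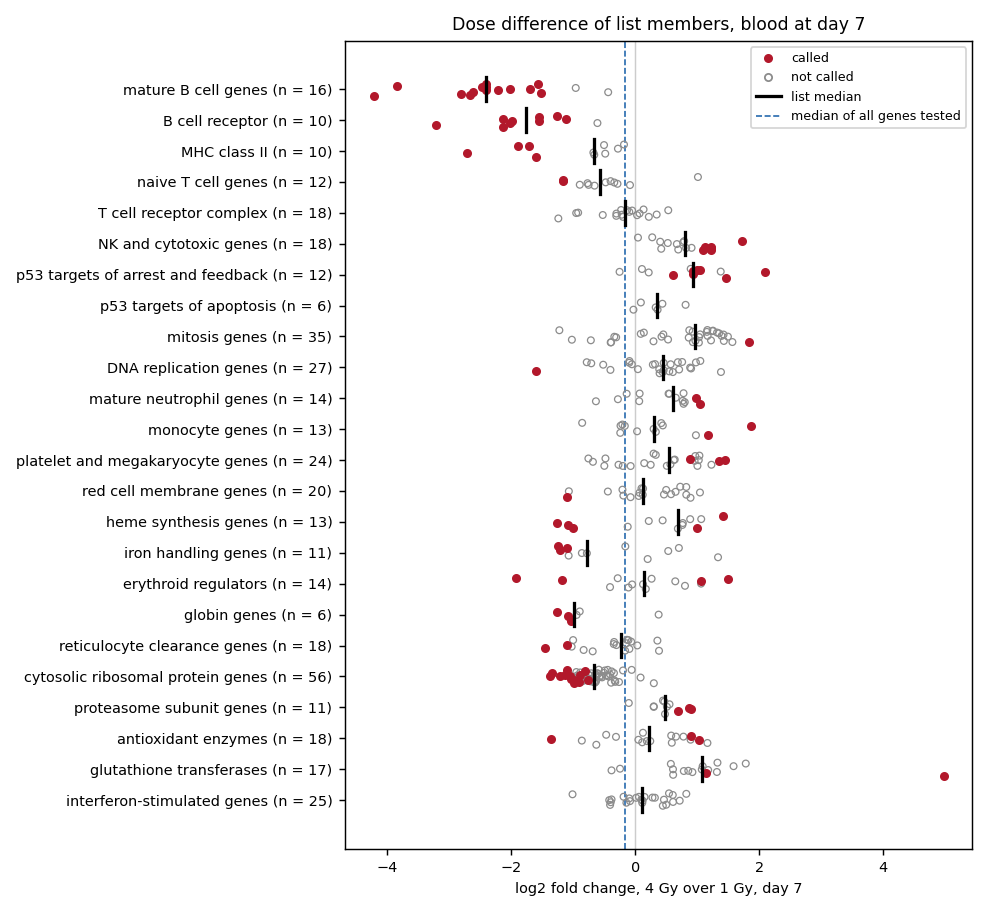
Log2 fold change of 4 Gy over 1 Gy x-rays at day 7 for every tested member of 24 gene lists (1 point a gene, filled where called by limma), with the list's median as a black bar and the median of all genes, -0.16, as a dashed line. Both B cell lists lie to the left with medians of -2.41 and -1.77, and the NK list lies to the right with a median of 0.80.

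B cell genes were lower at 4 Gy than at 1 Gy. Of 16 tested mature B cell genes, 14 were lower at 4 Gy and none higher, with a median log2 fold change of -2.41 against -0.16 over all genes, and of 10 tested genes of the B cell receptor and its coreceptors 9 were lower, with a median of -1.77. The members ranged from -4.22 to -0.44 and from -3.22 to -0.61, and those not called were Ltb, Cd37 and Btk. Leaving out any single mouse left 14 or 15 mature B cell genes and 8 to 10 receptor genes called lower, against 9 and 4 with slide as a block, and 5 and 1 when centred on the spike-in controls. EBF1, which commits lymphoid progenitors to the B lineage, had a level of -2.67, -2.23 and -1.97 (lowest, median, highest) at 4 Gy and 0.62, 0.48, 0.70, 0.40 and -0.28 in 1 Gy replicates 1 to 5, without overlap (log2 fold change -2.63 ± 0.21 (SE), adjusted p = 8.85e-06). POU2AF1 (gene Pou2af1), the B cell coactivator of octamer-binding factors, had 1.08, 1.47 and 1.64 at 4 Gy and 3.23, 3.08, 3.32, 3.32 and 2.73 at 1 Gy, again without overlap (log2 fold change -1.71 ± 0.17 (SE), adjusted p = 6.2e-05).

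The 250 bases upstream of the start are shown for 4 of the lower genes because they hold the letters that these factors are known to bind. They are given 5′ to 3′ on the gene's strand from RefSeq (build GRCm38.p6), in lower case, with capitals for CCCNNGGG, the core of the EBF1 motif, in Cd22 and Bank1, and for the octamer ATGCAAAT, read here on its other strand, in Vpreb3 and Blnk. The window of Vpreb3 is chr10:75948050-75948299 on the plus strand, that of Blnk chr19:40994222-40994471, that of Cd22 chr7:30879029-30879278 and that of Bank1 chr3:136326067-136326316, the last 3 on the minus strand.
Vpreb3: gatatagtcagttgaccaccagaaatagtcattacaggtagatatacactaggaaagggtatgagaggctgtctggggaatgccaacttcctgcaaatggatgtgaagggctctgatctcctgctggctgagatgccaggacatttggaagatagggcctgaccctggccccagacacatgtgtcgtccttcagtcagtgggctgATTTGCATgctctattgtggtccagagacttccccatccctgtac
Blnk: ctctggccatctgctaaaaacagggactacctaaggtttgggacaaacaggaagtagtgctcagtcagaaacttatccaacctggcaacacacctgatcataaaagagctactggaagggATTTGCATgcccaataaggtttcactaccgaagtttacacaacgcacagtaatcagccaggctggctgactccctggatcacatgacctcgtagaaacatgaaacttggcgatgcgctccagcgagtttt
Cd22: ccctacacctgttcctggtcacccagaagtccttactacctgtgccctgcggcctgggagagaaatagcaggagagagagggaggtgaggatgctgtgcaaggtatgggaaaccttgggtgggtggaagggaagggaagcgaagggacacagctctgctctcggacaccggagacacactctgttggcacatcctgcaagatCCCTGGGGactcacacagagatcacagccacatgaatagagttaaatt
Bank1: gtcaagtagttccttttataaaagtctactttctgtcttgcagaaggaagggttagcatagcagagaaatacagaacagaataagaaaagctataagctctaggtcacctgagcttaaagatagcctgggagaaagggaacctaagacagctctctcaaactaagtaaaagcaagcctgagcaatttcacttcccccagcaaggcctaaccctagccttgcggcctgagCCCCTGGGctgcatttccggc
Of the 23 called members of both lists, 17 had such a window. The EBF1 core, searched on both strands, lay in 4 of the 17 (23.5%), in 18.4% of the tested genes with a window and in 11.8% of all 32851 windows. The octamer lay in 2 of the 17 (11.8%), in 1.84% of the tested genes and in 1.6% of all windows. A match is a description of the letters, and none of the 4 windows shown holds both motifs.

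Vpreb3, a protein of the B lineage related to the surrogate light chain, had the lowest log2 fold change of the called genes that met the naming rule. Its level was -1.29, -0.96 and -0.63 at 4 Gy and 3.63, 3.43, 3.46, 3.38 and 2.25 in the 1 Gy mice (log2 fold change -4.22 ± 0.25 (SE), adjusted p = 1.71e-06), against 3.42 to 4.28 in controls. All 6 mice at 4 Gy lay below all 5 at 1 Gy, and replicate 5 was the lowest of the 1 Gy mice. Fcer2a, which encodes CD23, the low-affinity IgE receptor of mature B cells, had -3.55, -3.07 and -2.84 at 4 Gy and 1.19, 0.85, 0.85, 1.13 and -0.43 at 1 Gy (log2 fold change -3.85 ± 0.28 (SE), adjusted p = 4.75e-06). Cr2, the complement receptor of the B cell coreceptor complex, had -1.74, -1.13 and -1.08 at 4 Gy and 2.01, 2.11, 2.13, 2.14 and 1.24 at 1 Gy (log2 fold change -3.22 ± 0.21 (SE), adjusted p = 3.38e-06). Fcer2a and Cr2 separated the doses completely, and their 1 Gy replicate 5 was again the lowest. That the doses did not overlap was a condition for listing Vpreb3, Fcer2a and Cr2 among the largest falls. Fcmr, the Fc receptor for IgM, had 1.49, 1.85 and 2.36 at 4 Gy and 4.63, 4.78, 5.13, 5.25 and 3.58 at 1 Gy (log2 fold change -2.81 ± 0.28 (SE), adjusted p = 6.47e-05).

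The signalling chains of the B cell receptor fell too. Cd79a had 1.53, 1.97 and 2.48 at 4 Gy and 4.04, 4.21, 4.39, 4.47 and 3.57 at 1 Gy (log2 fold change -2.14 ± 0.23 (SE), adjusted p = 0.00012), and Cd79b had 3.48, 3.90 and 4.23 at 4 Gy and 6.03, 6.26, 6.19, 6.10 and 5.51 at 1 Gy (log2 fold change -2.14 ± 0.19 (SE), adjusted p = 2.45e-05). In neither gene did a mouse of one dose reach the range of the other. Relative to the controls that both comparisons share, Cd79a was at -3.29 at 4 Gy and -1.15 at 1 Gy, and over the mature B cell list the median was -2.89 at 4 Gy and -0.69 at 1 Gy, with 15 and 3 of 16 members lower (8.5% and 0.709% of all genes). None of 7 tested plasma cell genes was called (median 0.48), and Mzb1, a chaperone of antibody secretion, was at -0.77 ± 0.19 (SE, adjusted p = 0.012).

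Genes outside both lists were lower too. Pla2g2d, a secreted phospholipase of lymphoid organs, was -4.09, -3.71 and -3.32 at 4 Gy and 0.47, 0.49, 0.37, 0.71 and -0.68 at 1 Gy (log2 fold change -4.01 ± 0.25 (SE), adjusted p = 2.11e-06). Chst3, a chondroitin sulfotransferase, was -1.49, -1.25 and -0.91 at 4 Gy and 1.94, 2.13, 2.17, 2.31 and 0.97 at 1 Gy (log2 fold change -3.15 ± 0.24 (SE), adjusted p = 6.36e-06). The doses did not overlap in either, which was a condition for listing them among the largest falls. Klhl14, a Kelch protein of B cells, was -5.22, -4.66 and -3.30 at 4 Gy and -1.36, -1.09, -1.46, -1.84 and -2.13 at 1 Gy (log2 fold change -2.91 ± 0.31 (SE), adjusted p = 0.00012). Bcl11a, a repressor required for B lymphopoiesis that also silences fetal globin, was -0.72, -0.37 and -0.079 at 4 Gy and 1.59, 1.48, 1.93, 1.88 and 0.79 at 1 Gy (log2 fold change -1.93 ± 0.23 (SE), adjusted p = 0.000226), again with no overlap.

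**Figure D2:**
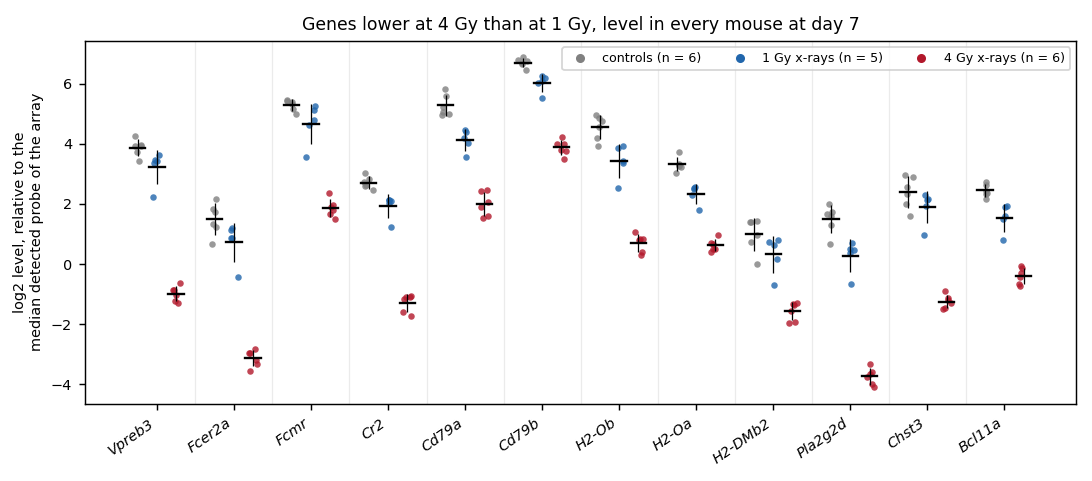
Level of 12 genes lower at 4 Gy in every mouse of day 7 (log2, relative to the median detected probe of the array), for controls (grey, n = 6), 1 Gy (blue, n = 5) and 4 Gy (red, n = 6), with the group mean and SD in black. In each gene the 4 Gy mice lie below the 1 Gy mice, and in Vpreb3 the 4 Gy mice sit between -1.29 and -0.63 and the 1 Gy mice between 2.25 and 3.63. For Vpreb3, Fcer2a, Cr2, Pla2g2d and Chst3 this separation was a condition of the rule for the largest falls.

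MHC class II molecules present antigen on B cells and on other antigen-presenting cells. All 10 tested members had a negative log2 fold change (median -0.67), of which 4 were called. These were H2-Ob (-2.72 ± 0.25), H2-DMb2 (-1.89 ± 0.27), H2-Oa (-1.71 ± 0.19) and the class II transactivator Ciita (-1.60 ± 0.29), each ± SE. H2-Oa and H2-Ob together encode H2-O, which restrains peptide loading and is found mainly in B cells. Its beta chain H2-Ob had 0.29, 0.81 and 1.06 at 4 Gy and 3.42, 3.37, 3.85, 3.94 and 2.52 at 1 Gy (adjusted p = 3.95e-05), with no overlap. The classical chains were not called, with H2-Aa at -0.49, H2-Ab1 at -0.66, H2-Eb1 at -0.68 and the invariant chain Cd74 at -0.51. H2-Eb2, a further beta chain outside the list, had -4.44, -3.80 and -3.36 at 4 Gy and -0.78, -0.73, -0.10, 0.054 and -1.76 at 1 Gy (log2 fold change -3.14 ± 0.31 (SE), adjusted p = 6.47e-05). The median of the MHC class II list was 0.12 with slide as a block, where no member was called, and 0.49 when centred on the spike-in controls, where 1 was.

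Genes listed here as p53 targets of arrest and feedback were higher at 4 Gy. Of 12 tested, 7 were called higher and none lower, with a median of 0.93. Cdkn1a, the p21 inhibitor of cyclin-dependent kinases, had 0.079, 0.30 and 0.52 at 4 Gy and -1.66, -1.28, -2.02, -2.61 and -1.36 at 1 Gy (log2 fold change 2.09 ± 0.23 (SE), adjusted p = 0.000154), a 4.25-fold difference, and controls had -3.25 to -1.73. The doses did not overlap. Plk2, a polo-like kinase induced by p53, had -2.60, -2.45 and -1.61 at 4 Gy and -3.98, -3.77, -3.44, -4.54 and -2.94 at 1 Gy (log2 fold change 1.46 ± 0.28 (SE), adjusted p = 0.00437), and Zmat3, an RNA-binding p53 target, had -0.49, -0.40 and 0.07 at 4 Gy and -1.34, -1.37, -1.14, -1.67 and -1.21 at 1 Gy (log2 fold change 1.04 ± 0.17 (SE), adjusted p = 0.00178). The doses were apart in both. The remaining called members were Phlda3, Ccng1, Ei24 and Aen, at 0.995, 0.93, 0.93 and 0.60. Phlda3, Ei24 and Aen have also been linked to apoptosis, so the list does not hold arrest genes alone.

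In the separate list of apoptotic p53 targets no member passed the test. None of 6 tested was called (median 0.34), and the member with the smallest p was Bax, a pore-forming BCL2 family protein, with 2.66, 3.07 and 3.41 at 4 Gy and 2.77, 2.54, 2.59, 2.59 and 2.68 at 1 Gy (log2 fold change 0.44 ± 0.16 (SE), adjusted p = 0.0614). None of 3 damage-induced repair genes was called, with Gadd45a at -0.66 ± 0.27 (SE, adjusted p = 0.0887). Relative to controls, Cdkn1a was at 3.07 at 4 Gy and 0.98 at 1 Gy. Of the 12 genes of the arrest and feedback list, 7 and 0 were called higher (9.06% and 3.3% of all genes). Without the 5 mice with liver transcripts 4 of the 12 p53 targets of arrest and feedback were called, at a median of 0.86, and with slide as a block none, at a median of 0.75. With normexp background correction 1 of 14 was called, at a median of 0.44.

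NK and cytotoxic lymphocyte genes lay on the other side from B cell genes. All 18 tested had a positive log2 fold change (median 0.80) and 6 were called higher. Gzmb, the granzyme B protease of cytotoxic granules, had 3.66, 3.77 and 4.54 at 4 Gy and 2.84, 1.93, 2.66, 2.29 and 1.45 at 1 Gy (log2 fold change 1.72 ± 0.27 (SE), adjusted p = 0.00155). Il2rb, a receptor chain for interleukins of NK cells, had 4.67, 4.96 and 5.58 at 4 Gy and 4.07, 3.78, 4.49, 3.99 and 2.75 at 1 Gy (log2 fold change 1.22 ± 0.28 (SE), adjusted p = 0.00887), and Ncr1, the activating receptor NKp46, had 0.019, 0.84 and 1.08 at 4 Gy and -0.033, -0.48, -0.26, -0.44 and -1.31 at 1 Gy (log2 fold change 1.22 ± 0.26 (SE), adjusted p = 0.00654). Gzmb, Il2rb and Ncr1 all separated the doses. The other called members were the receptors Klrb1c (1.21) and Klrk1 (1.13) and the transcription factor Tbx21 (1.09), whereas Prf1 was at 0.67 and Gzma at 0.40 without passing the test. Replicate 5 of the 1 Gy group was the lowest mouse for Gzmb, Il2rb and Ncr1. Between 2 and 7 members were called when single mice were left out. The count was 2 without replicate 1 or 2 of the 4 Gy group or replicate 2 of the 1 Gy group. It was 3 without replicates 3 or 4 of the 4 Gy group or replicate 4 of the 1 Gy group, and scan date as a block gives that last fit. Without the 5 mice with liver transcripts 3 were called, and with slide as a block 10. With normexp background correction none of 16 NK and cytotoxic genes was called, at a median of 0.53.

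Few T cell genes passed the test at this day. None of 18 genes of the T cell receptor complex and its coreceptors was called (median -0.17), with Cd3e at -0.31, Cd4 at -0.92 and Cd8a at -1.24, and Cd8b1 at -0.96 ± 0.27 (SE, adjusted p = 0.0237). Of 12 naive T cell genes (median -0.57, and 0.59 when centred on the spike-in controls), Ccr7 and Dapl1 were lower. Ccr7, the lymph node homing receptor also carried by B cells, had 3.03, 3.62 and 3.74 at 4 Gy and 4.64, 4.71, 5.01, 5.07 and 3.90 at 1 Gy (log2 fold change -1.17 ± 0.23 (SE), adjusted p = 0.00486). Dapl1, found in naive T cells, had 0.64, 0.87 and 1.27 at 4 Gy and 2.23, 2.33, 2.25, 2.34 and 1.34 at 1 Gy (log2 fold change -1.17 ± 0.21 (SE), adjusted p = 0.00347). In both the doses were apart, and 1 Gy replicate 5 lay closest to the 4 Gy mice.

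The largest rises were in genes of varied function. Gstt1, a glutathione transferase that liver also expresses, had 4.67, 4.93 and 5.89 at 4 Gy and -0.51, -0.80, 0.32, -0.83 and 2.67 at 1 Gy (log2 fold change 4.98 ± 0.54 (SE), adjusted p = 0.000125), a 31.5-fold difference. All 4 Gy mice lay above every 1 Gy mouse, which was a condition for listing a gene among the largest rises. The highest 1 Gy mouse, replicate 5, was one of those with liver transcripts, and the 4 Gy mice without liver transcripts had 4.89, 4.97 and 4.88. Olr1, a scavenger receptor for oxidized lipoprotein, had -0.56, -0.19 and 0.31 at 4 Gy and -3.42, -3.77, -3.35, -3.66 and -3.87 at 1 Gy (log2 fold change 3.46 ± 0.19 (SE), adjusted p = 1.71e-06). C1qtnf4, a secreted protein of the C1q family, had -1.004, -0.37 and 0.35 at 4 Gy and -3.46, -3.47, -3.66, -3.74 and -3.37 at 1 Gy (log2 fold change 3.16 ± 0.22 (SE), adjusted p = 3.89e-06). Controls lay at -3.98 to -2.98 for Olr1 and -4.45 to -3.29 for C1qtnf4, where the 1 Gy mice also lay.

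Lrg1, a secreted glycoprotein made by neutrophils and liver, had 4.22, 4.79 and 5.18 at 4 Gy and 2.34, 2.27, 1.86, 1.92 and 2.94 at 1 Gy (log2 fold change 2.49 ± 0.25 (SE), adjusted p = 6.2e-05). The contractile protein genes Tpm2 and Cnn1, which platelets or smooth muscle express, were at 2.48 ± 0.38 (adjusted p = 0.00153) and 2.25 ± 0.24 (adjusted p = 0.000101). In Tpm2, 4 Gy replicate 1 at 1.21 stood below its group but above all 1 Gy mice. Among the rest of the largest rises, Slc6a3 (dopamine transporter) was at 2.49 ± 0.48, Mxra7 at 2.32 ± 0.35, Tmem273 at 2.23 ± 0.39 and Slc13a3 (dicarboxylate transporter) at 2.15 ± 0.49. Of the 5 mice at 1 Gy, only 3 were above background for Slc6a3 and for Slc13a3, and 4 for Mxra7 and for Tmem273. The lowest 1 Gy levels were -6.26 for Slc6a3 and -4.52 for Slc13a3, so the size of these rises rests partly on dim values. Slc13a3 was not called in 20 of 28 alternative settings. Among the largest falls outside the B lineage, Aldh3b2 (an aldehyde dehydrogenase) was at -3.95 ± 0.41, Fam205c at -3.31 ± 0.32 and Folr1 (folate receptor) at -2.82 ± 0.44. The doses did not overlap in any of these genes, which was a condition of their choice.

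**Figure D3:**
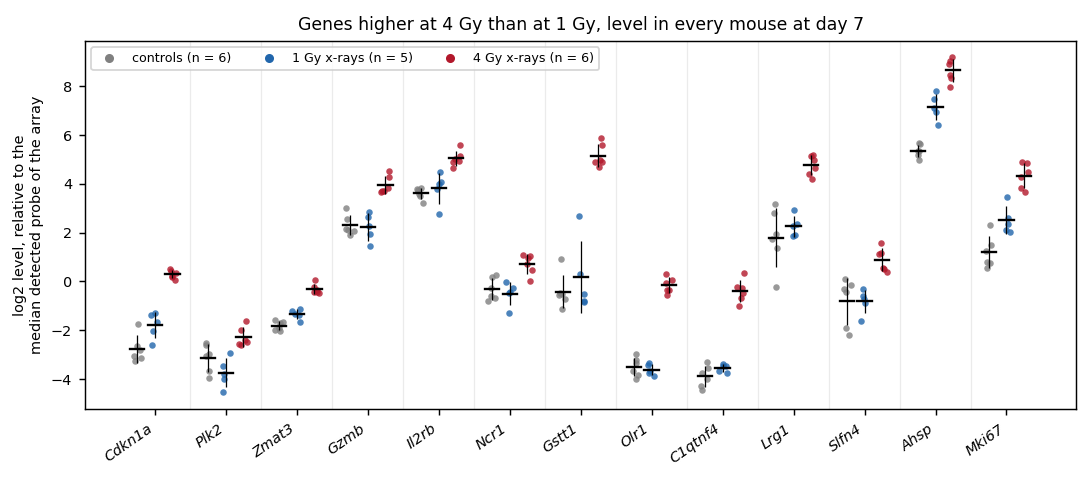
Level of 13 genes higher at 4 Gy in every mouse of day 7 (log2, relative to the median detected probe of the array), for controls (grey, n = 6), 1 Gy (blue, n = 5) and 4 Gy (red, n = 6), with the group mean and SD in black. The 4 Gy mice lie above the 1 Gy mice, and Gstt1 shows 1 Gy replicate 5 at 2.67, above the other 1 Gy mice. For Gstt1, Olr1, C1qtnf4 and Lrg1 this separation was a condition of the rule for the largest rises.

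Genes of cell division separated most mice by dose, with 1 exception. Of 35 tested mitosis genes, 28 had a positive log2 fold change and the median was 0.97, but only Mki67 was called. The mean level of the list was 0.67, 0.51, 0.40, 0.47 and 2.18 in 1 Gy replicates 1 to 5, 1.25 to 1.71 in the 4 Gy mice and -0.11 to 0.68 in controls. Replicate 5 of the 1 Gy group therefore lay above all 4 Gy mice. Without it 23 members were called higher and 2 lower (median 1.37), whereas with slide as a block, where it is the only 1 Gy mouse, the median was -0.55 and none was called higher. Without the 5 mice with liver transcripts, among them replicate 5, 20 were called higher.

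Mki67, the marker of cycling cells, had 3.65, 4.40 and 4.90 at 4 Gy and 2.04, 2.59, 2.11, 2.36 and 3.46 at 1 Gy (log2 fold change 1.83 ± 0.30 (SE), adjusted p = 0.00211), without overlap, and 0.56 to 2.32 in controls. Anln, a protein of the cleavage furrow, had -1.21, -0.85 and -0.42 at 4 Gy and -2.30, -2.68, -2.08, -3.01 and -0.31 at 1 Gy (log2 fold change 1.25 ± 0.39 (SE), adjusted p = 0.0354), but 1 Gy replicate 5 exceeded every 4 Gy mouse. Other division genes named in the study did not pass the test. Ccna2 (cyclin A2) was at 0.14 ± 0.20 and Ube2c, a ubiquitin-conjugating enzyme of the anaphase-promoting complex, at -0.72 ± 0.27, and the phosphatase Cdc25b at -1.23 ± 0.30 (adjusted p = 0.612, 0.0674 and 0.0131). E2f1, which drives entry into S phase, was at 1.05 ± 0.27 (adjusted p = 0.0147).

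Of 27 DNA replication genes 1 was lower, near the 5.54% of all genes, and none was higher (median 0.44). Of 13 double-strand break repair genes none was called (median 0.34). Lig1, the DNA ligase that joins lagging strand fragments, was the lower one, with 5.79, 6.71 and 7.13 at 4 Gy and 8.87, 8.28, 7.76, 8.23 and 7.81 at 1 Gy (log2 fold change -1.61 ± 0.29 (SE), adjusted p = 0.00326), with no overlap. Without 1 Gy replicate 5, 13 replication genes and 5 break repair genes were higher. Of 8 E2f family and pocket protein genes, Tfdp2, an E2F partner, was lower at -1.53 ± 0.26 (adjusted p = 0.00248). Kit, a receptor of blood progenitors, was at 1.05 ± 0.28 (adjusted p = 0.0167) and no stem or progenitor gene was called of 9.

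Abundant transcripts were lower at 4 Gy than at 1 Gy, among them red cell and ribosomal genes. Relative to controls, the globin list had a median of -0.30 at 4 Gy and 0.76 at 1 Gy, and iron handling 0.013 and 0.59. For reticulocyte clearance the medians were 0.89 and 1.16, for heme synthesis 1.20 and 0.70, and for ribosomal protein genes -0.72 and 0.052. Above a mean level of 8 over the x-ray and control mice of day 7 lay 164 genes, of which 68 were lower and none higher, with a median of -0.88. The median was -0.58 between 6 and 8, -0.31 between 4 and 6, -0.12 between 2 and 4, and -0.16 below -2. After quantile normalization, which gives every array the same distribution of levels, the median above 8 was -0.081 and 2 genes were lower. The counts of red cell and ribosomal genes below depend on that choice, and the brightness of the 4 Gy arrays stood above that of the 1 Gy arrays throughout. The part of brightness in these falls was not tested.

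**Figure D4:**
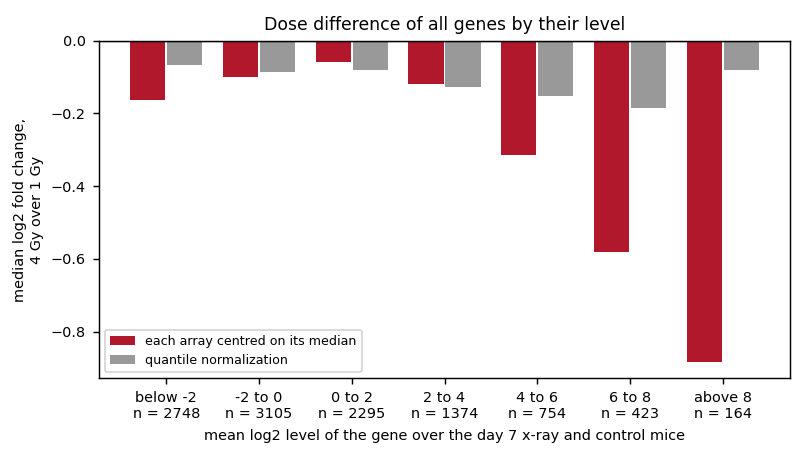
Log2 fold change of 4 Gy over 1 Gy (vertical axis) by mean log2 level (horizontal axis) over 7 classes of genes, as the median of each class in bars, with each array centred on its median detected probe (red) and after quantile normalization (grey). The number of genes in a class is under its bar. The median falls to -0.88 above a level of 8 when centred on the median and is -0.081 there after quantile normalization.

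Globin genes, which encode the chains of hemoglobin, were lower in 3 of 6 tested (median -0.997), although the RNA had been depleted of globin transcripts and the levels depend on that step. Hba-a2 had 8.95, 9.85 and 10.29 at 4 Gy and 11.37, 10.86, 11.03, 11.35 and 10.58 at 1 Gy (log2 fold change -1.27 ± 0.24 (SE), adjusted p = 0.0041), Hbb-bt was at -1.09 ± 0.24 and Hba-a1 at -1.05 ± 0.22. Both alpha genes are nearly identical, so that their probes cannot be taken as separate measurements. The median of the globin genes was 0.10 after quantile normalization, with 2 tested, and 0.17 when centred on the spike-in controls. None was called lower in either, with slide as a block or without the 5 mice with liver transcripts, and 1 to 4 when single mice were left out (1 without 1 Gy replicate 1, and 2 without replicate 1 or 2 of 4 Gy or 2, 3 or 4 of 1 Gy).

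Heme synthesis genes moved both ways. Alas2, the first and erythroid-specific enzyme, had 8.98, 9.77 and 10.16 at 4 Gy and 11.35, 10.87, 10.80, 11.03 and 10.61 at 1 Gy (log2 fold change -1.26 ± 0.23 (SE), adjusted p = 0.00302). Values for the mitochondrial iron importer Slc25a37 and ferrochelatase Fech were -1.08 ± 0.22 and -1.004 ± 0.21. Relative to controls Alas2, Slc25a37 and Fech were at -0.56, 0.36 and -0.19 at 4 Gy. At 1 Gy they were at 0.70, 1.44 and 0.81. Alad, the second enzyme, had 0.60, 1.33 and 1.68 at 4 Gy and -0.0049, -0.12, -0.69, -0.13 and -0.065 at 1 Gy (log2 fold change 1.42 ± 0.24 (SE), adjusted p = 0.00216), while the porphyrin exporter Abcg2 was at 0.99 ± 0.21. After quantile normalization 3 heme genes were higher and none lower, with Slc25a37 at 0.0055 and Fech at 0.019. Without the 5 mice with liver transcripts none was higher and 1 was lower, and with normexp background correction none was higher and 2 were lower.

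Ahsp, the chaperone of free alpha globin, rose, with 7.98, 8.68 and 9.18 at 4 Gy and 6.95, 7.49, 6.40, 7.82 and 7.10 at 1 Gy (log2 fold change 1.49 ± 0.28 (SE), adjusted p = 0.00397), without overlap, and 4.99 to 5.66 in controls. Zfpm1, the GATA1 cofactor FOG1, was at 1.06 ± 0.21 (adjusted p = 0.00507), while Lmo2, a bridge of the GATA1 complex, was at -1.19 ± 0.26 (adjusted p = 0.00742). Of 11 iron handling genes 3 were lower, namely Slc11a2 (-1.25), the ferritin light chain Ftl1 (-1.22) and the ferritin receptor Ncoa4 (-1.11), although the median of the iron handling genes went from -0.78 to 1.001 when centred on the spike-in controls, where none was called lower. Of 18 genes of reticulocyte clearance 2 were lower, the mitophagy receptor Bnip3l (-1.46 ± 0.30) and the ubiquitin ligase Mkrn1 (-1.11 ± 0.25). Of 20 red cell membrane genes only Epb41, protein 4.1R (-1.11 ± 0.22), was lower, near the 5.54% of all genes. When centred on the spike-in controls, Epb41, Mkrn1, Ftl1, Ncoa4, Slc25a37, Fech, Hba-a1 and Hbb-bt had positive values, and the first was at 0.052 after quantile normalization too. Relative to controls Epb41 was at 0.073 at 4 Gy and 1.18 at 1 Gy, and 10 and 11 of 20 membrane genes were higher (9.06% and 3.3% of all genes).

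Cytosolic ribosomal protein genes were lower in 13 of 56 tested, with a negative log2 fold change in 54 and a median of -0.66. Rps24 had 7.22, 8.45 and 8.84 at 4 Gy and 10.04, 9.56, 9.66, 9.74 and 9.25 at 1 Gy (log2 fold change -1.38 ± 0.28 (SE), adjusted p = 0.00543), Rpl39 was at -1.35 ± 0.29 and Rpl17 at -1.21 ± 0.23. The doses did not overlap in 37 of the 56, against 14.2% of all genes tested. Abundant genes of any kind were lower too, with a median of -0.58 between levels 6 and 8 and -0.88 above 8, so the count is not particular to ribosomal genes. Without the 5 mice with liver transcripts none was called, at a median of -0.57, none of 33 cytosolic ribosomal protein genes was called after quantile normalization, at a median of -0.090, and none was lower when centred on the spike-in controls, at a median of 0.57, or with slide as a block. When single mice were left out 2 to 14 were called, with 2 to 7 in all cases but those without replicate 3 or 6 of the 4 Gy group or replicate 5 of the 1 Gy group. Subunits of the proteasome, which degrades proteins, were higher in 3 of 11, namely Psmd2 (0.90 ± 0.18), Psmc5 (0.87 ± 0.18) and Psmd11 (0.69 ± 0.16). None of these proteasome subunit genes was called without the 5 mice with liver transcripts or with slide as a block, and none of 28 proteasome subunit genes with normexp background correction, at a median of 0.15.

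Myeloid genes rose singly, and over all genes 4% were higher and 5.54% lower. Of 11 neutrophil granule genes Lcn2, the iron-sequestering lipocalin, was higher, with 3.19, 3.83 and 4.34 at 4 Gy and 2.44, 2.21, 2.20, 2.44 and 1.90 at 1 Gy (log2 fold change 1.54 ± 0.22 (SE), adjusted p = 0.00104). Of 14 mature neutrophil genes Slpi, a protease inhibitor, and Clec4e, a lectin receptor, were higher, at 1.04 ± 0.24 and 0.97 ± 0.21. Of 13 monocyte genes 2 were higher, among them Cd14, the coreceptor for lipopolysaccharide, with 0.17, 0.70 and 0.92 at 4 Gy and -1.14, -0.48, -1.54, -2.85 and -0.19 at 1 Gy (log2 fold change 1.86 ± 0.39 (SE), adjusted p = 0.00641). In Cd14 the doses were apart, and replicate 4 was the lowest 1 Gy mouse. Among 9 genes of eosinophils, basophils and mast cells, Alox15 was higher (1.69 ± 0.38) and Il5ra, the interleukin receptor of eosinophils, was lower, with -1.88, -1.51 and -0.96 at 4 Gy and -0.27, 0.0033, 0.12, 0.13 and -0.33 at 1 Gy (log2 fold change -1.40 ± 0.19 (SE), adjusted p = 0.000867). Of 9 dendritic cell genes 2 were lower (Siglech and Tcf4) and none higher (median -0.46). With normexp background correction no member of these neutrophil, monocyte, eosinophil, basophil, mast cell and dendritic cell lists was called.

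Platelet genes were higher in 3 of 24 (median 0.54), against 4% of all genes. Gp1bb, a subunit of the von Willebrand factor receptor, had 2.86, 3.23 and 4.15 at 4 Gy and 2.37, 1.89, 2.22, 2.49 and 0.74 at 1 Gy (log2 fold change 1.44 ± 0.33 (SE), adjusted p = 0.00867), Selp, the adhesion protein P-selectin, was at 1.35 ± 0.23 and the ATP receptor P2rx1 at 0.88 ± 0.20. Pf4 and Ppbp, chemokines of platelet granules, were at -0.27 and 0.29 and not called. Only 1 member was called without the 5 mice with liver transcripts, and 1 also without replicate 2, 3, 4 or 5 of the 4 Gy group or replicate 2 or 3 of the 1 Gy group. With normexp background correction none was called, at a median of 0.27 over the platelet and megakaryocyte genes. Of 6 Schlafen family genes, which restrain lymphocyte and myeloid growth, Slfn4 and Slfn3 were higher, at 1.71 ± 0.27 and 1.08 ± 0.22.

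None of 25 interferon-stimulated genes was called (median 0.11), where over all genes 4% were higher and 5.54% lower. Of 8 Toll-like receptor and adaptor genes Tlr4 was higher, with -1.62, -1.55 and -1.44 at 4 Gy and -1.998, -2.13, -2.53, -2.63 and -2.70 at 1 Gy (log2 fold change 0.86 ± 0.17 (SE), adjusted p = 0.00468). Glutathione transferases were higher in 2 of 17 (median 1.07), Gstt1 and the microsomal Mgst3 (1.15 ± 0.24). Of 18 antioxidant enzymes, Gpx4, which reduces lipid peroxides, and the mitochondrial peroxiredoxin Prdx3 were higher, at 1.02 ± 0.23 and 0.89 ± 0.19, and catalase (Cat), abundant in red cells, was lower, with 4.84, 5.19 and 5.68 at 4 Gy and 6.84, 6.76, 6.54, 7.15 and 5.69 at 1 Gy (log2 fold change -1.36 ± 0.25 (SE), adjusted p = 0.00375). With normexp background correction no Toll-like receptor, adaptor or antioxidant gene was called higher. Relative to controls Cat was at 0.025 at 4 Gy and 1.39 at 1 Gy. None of 4 acute-phase genes was called (median 1.38), nor any of 10 hepatocyte genes that passed the filters (median 0.93).

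The same dose contrast was available 1 day after exposure, in 5 mice at 4 Gy and 6 at 1 Gy, and the difference between the days was tested as an interaction over all 22 mice. There were 497 genes higher (4.58%) and 1417 lower (13%) at 4 Gy on day 1, and the contrast differed between the days in 955 genes, with 660 (6.08%) more positive and 295 (2.72%) more negative at day 7. The hepatocyte list was at 1.66 to 6.45 in the 1 Gy mice of day 1 and 6.73 to 7.91 in the 4 Gy mice of day 1. Days and doses also differed in scan date, and 41 genes were called with scan date as a block, 4 with normexp background correction and 391 with the detection filter set over the 11 arrays of day 7 alone.

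Most T cell and MHC class II genes had a larger contrast at day 1 than at day 7. The median of the T cell receptor list was -1.98 at day 1 and -0.17 at day 7, with 14 of 18 members lower at day 1 and none at day 7, and the interaction was called in 12, all more positive at day 7. The median of the mature B cell list was -3.28 at day 1 and -2.41 at day 7, where the interaction was called in 1 of 16, Ebf1 (1.53, adjusted p = 0.00747). In MHC class II genes it was called in 8 of 10, with H2-DMb2 at -4.04 at day 1 and -1.89 at day 7 (interaction 2.15 ± 0.47, adjusted p = 0.00354). In the naive T cell gene Dapl1 the contrast was -4.40 at day 1 and -1.17 at day 7 (interaction 3.23 ± 0.36, adjusted p = 2.79e-05). Vpreb3 was at -4.54 and -4.22, and its interaction of 0.32 ± 0.38 did not pass the test (adjusted p = 0.566).

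The dose contrast of mitosis genes differed between the days. Of 35 mitosis genes 21 were lower at 4 Gy on day 1 (median -1.29) and 1 was higher on day 7 (median 0.97), and the interaction was called in 24, all more positive at day 7. Mki67 at day 1 was -1.64, -0.98 and -0.62 at 4 Gy and -0.33, 0.31 and 0.59 at 1 Gy (lowest, median, highest), and its contrast went from -1.28 to 1.83 (interaction 3.11 ± 0.40, adjusted p = 0.000108). Ahsp went from -1.40 to 1.49. Of 27 replication genes 13 were lower at day 1, and the interaction was called in 13.

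Some genes that differed at day 7 showed little contrast at day 1. Olr1 was at -0.091 at day 1 and 3.46 at day 7 (interaction 3.55 ± 0.36, adjusted p = 7.88e-06), and C1qtnf4 at 0.11 and 3.16 (interaction 3.05 ± 0.34, adjusted p = 2.79e-05). Folr1 went from 0.66 to -2.82 and the retinaldehyde dehydrogenase Aldh1a1 from 0.99 to -1.95 (interaction -2.94 ± 0.37, adjusted p = 8.04e-05). Lcn2 had the larger contrast at day 1, 4.02 against 1.54 (interaction -2.47 ± 0.55, adjusted p = 0.00382). For Cdkn1a the contrast was 1.04 at day 1 and 2.09 at day 7, and its interaction of 1.05 ± 0.33 was not called (adjusted p = 0.0282).

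**Figure D5:**
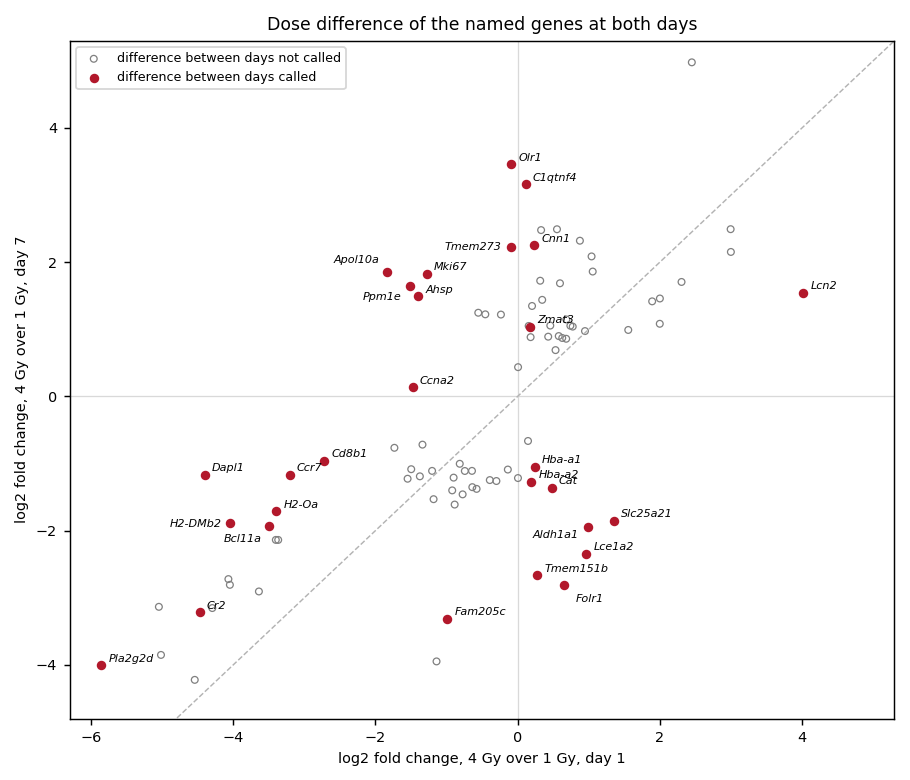
Log2 fold change of 4 Gy over 1 Gy x-rays at day 1 (horizontal axis) and at day 7 (vertical axis) for the genes named, filled where the interaction was called, with the line of equal contrast dashed. Olr1 and C1qtnf4 lie near 0 at day 1 and at 3.46 and 3.16 at day 7, and Mki67 and Ahsp lie below 0 at day 1 and above 0 at day 7.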

How the data were processed

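Blood RNA of 11 x-ray mice of day 7 (6 at 4 Gy, 5 at 1 Gy), with the 6 controls of day 7 and the x-ray mice of day 1, was analysed from the per-array files, grouped by sample title. Per the labels, the authors hybridized Cy3-labelled RNA to 1-colour 4x44K arrays and deposited Agilent Feature Extraction 12.0.2 output, whose processed signal is a background-corrected intensity. RNA had been cleared of globin transcripts. Control spots were left out, intensities were put on a log2 scale and centred, array by array, on the median detected probe.

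Probes flagged or not well above background on 25% or more of the 56 arrays of days 1 and 7 were left out, as were probes under a 1.5-fold change from the median in more than 80% of them, and the brightest probe of each gene was kept. Groups were compared with limma 3.58.1 in R 4.3.3 (2-sided). Calls required p below 0.001 together with a false discovery rate below 0.05 over all 10863 genes, by the Benjamini-Hochberg method. The script was tested on simulated data. The number of arrays limits the precision. The p-values measure the spread between arrays of 1 mouse each and, without a block, take no account of the slides, most of which held a single dose.

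The genes and lists were chosen with earlier results of these data known. Genes were named by rule. The rule took the 10 largest rises and falls among called genes whose doses did not overlap, up to 3 called members of each list in each direction (or the member with the smallest p), the cell cycle genes the study names, and the 5 largest interactions in each direction. Some of these are not reported here, and other list members were named after their values were seen. Lists are described by counts and medians, with no set test. Alternatives covered background correction, scaling, filters, probe averaging, the methods' random variance t-test, a shared spread, slide and scan date, replicate number as a block and leaving out each mouse. Leaving out the 5 mice with liver transcripts and slide as a random block were chosen after seeing the data. The deposited log2 value table was not used, since of its 11 columns for these mice 0 followed their own array, 8 another array of the same group and 3 one of another group. Which of the deposited sources names the mice correctly cannot be settled here, and every result rests on the titles of the per-array files.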

Additional observations from a re-analysis of the deposited data

Results flagged for a closer look

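In 194 groups of 5 or 6 mice examined for the named genes, 12 held a mouse far from the others of its group, where chance alone gives about 10. Of these, 8 were replicate 5 of the 1 Gy group, which was low in the B cell genes Vpreb3 (2.25), Fcer2a (-0.43) and Cr2 (1.24), in Pla2g2d (-0.68), Chst3 (0.97) and Dapl1 (1.34) and in Slc6a3 (-6.26), and high in Tmem151b (1.22). The other 1 Gy mice lay at 3.38 to 3.63 for Vpreb3 and -0.34 to -0.09 for Tmem151b. Replicate 3 of the 1 Gy group was low in Mxra7 (-4.60) and in Alad (-0.69), replicate 4 was low in Alox15 (-1.11), and replicate 1 of the 4 Gy group was low in Tpm2 (1.21).

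The contrast of 4 Gy with 1 Gy differed between day 7 and day 1 in 955 genes by the interaction test, and values below are the contrast at day 7 minus that at day 1 (log2). It was more positive at day 7 in Apol10a (3.69), Olr1 (3.55), Dapl1 (3.23), Ppm1e (3.16), Mki67 (3.11), C1qtnf4 (3.05), Ahsp (2.89), Tmem273 (2.33), H2-DMb2 (2.15), Ccr7 (2.04), Cnn1 (2.02), Pla2g2d (1.85), Cd8b1 (1.76), H2-Oa (1.68), Ccna2 (1.61), Bcl11a (1.58), Cr2 (1.26) and Zmat3 (0.87). It was more negative in Folr1 (-3.48), Lce1a2 (-3.31), Slc25a21 (-3.20), Tmem151b (-2.94), Aldh1a1 (-2.94), Lcn2 (-2.47), Fam205c (-2.32), Cat (-1.84), Hba-a2 (-1.46) and Hba-a1 (-1.28).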

How the results depend on the processing

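The counts below are of genes called between the doses at day 7 (1036), the share of them higher at 4 Gy (41.9%) and members called in the gene lists (100 in all). With normexp background correction 372 genes were called, 6.18% higher, with 49 list members, of which 2 MHC class II, 1 p53 arrest, 0 NK and 6 ribosomal, and Ccna2 turned to -0.049. After quantile normalization the share was 51.6%, with 0 ribosomal and 0 globin genes lower, and Epb41, Slc25a37 and Fech turned to 0.052, 0.0055 and 0.019. Centred on the 75th percentile the share was 36.4% and 5 globin genes were lower, and centred on the median of all probes it was 53.2% with 5 ribosomal and 2 mitosis genes. Centred on the spike-in controls 3775 genes were called, 99.3% higher, with 244 list members, of which 5 mature B cell, 1 B cell receptor and 1 MHC class II genes were lower, 15 NK and 27 mitosis genes higher, and 0 ribosomal and 0 globin genes lower. There Gadd45a turned to 0.50, Mzb1 to 0.40, Cd8b1 to 0.21, Epb41 to 0.053, Slc25a37 to 0.078, Fech to 0.16, Ftl1 to 0.65, Ncoa4 to 0.052, Hbb-bt to 0.073, Hba-a1 to 0.12, Mkrn1 to 0.053 and Ube2c to 0.44. Without a detection filter 5 ribosomal and 2 mitosis genes were called, and with the filter over the 11 arrays 3 NK, 4 ribosomal and 2 mitosis genes. With no filter on change from the median the share was 47.1%, with 20 ribosomal and 5 globin genes, and with a spread shared over 10 groups 28.4%, with 3 NK, 32 ribosomal and 12 mitosis genes. Scan date as a block gave 689 calls, 48.0% higher, with 3 NK and 5 ribosomal genes. Only replicate 4 of the 1 Gy group had another scan date, so this fit equals the one without that mouse and does not examine scan date. With slide as a block 246 were called, 61.4% higher, with 43 list members, of which 9 mature B cell, 4 B cell receptor, 0 MHC class II, 0 p53 arrest, 10 NK, 0 ribosomal, 0 globin and 0 mitosis genes, and Anln turned to -0.22. With slide as a random block 6 ribosomal genes were lower. Without the 5 mice with liver transcripts 659 genes were called, 27.9% higher, with 4 p53 arrest, 3 NK, 0 ribosomal, 0 globin and 20 mitosis genes.

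Leaving out single mice gave 659 to 1317 genes, a share of 36.3% to 52.7%, 70 to 155 list members, 14 to 15 mature B cell, 8 to 10 B cell receptor, 4 to 5 MHC class II, 6 to 8 p53 arrest, 2 to 7 NK, 2 to 14 ribosomal, 1 to 4 globin and 1 to 23 mitosis genes. The lowest count of genes was without 1 Gy replicate 2 and the highest without 1 Gy replicate 5. The contrast between the days gave 4 genes with normexp, 391 with the detection filter over the 11 arrays, 41 with scan date as a block and 718 to 1062 with single mice left out, against 955. The comparison of 4 Gy with controls gave 350 with normexp, 1181 on the spike-in controls and 1481 to 2026 with single mice left out, and that of 1 Gy with controls gave 74, 953, 252 with the replicate block, 261 to 508 with single mice left out, and 746 with scan date as a random block, which does not separate date from exposure because no date held both groups.

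Replicate numbers were shared by the groups, but mice of the same number did not deviate together (correlations of 0.27, -0.11, -0.41, -0.12 and -0.42, and 0 mice correlated best with their own number). The fit with the replicate block called 425 genes and 52 list members, with 3 p53 arrest, 0 ribosomal and 1 globin genes. The cause of these changes was not tested. Signal over background limits dim genes, and no depth of reads applies to arrays.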
